A study of Mus musculus with 4 samples.

Results

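The Notch receptors, ligands and targets were examined in primary liver sinusoidal endothelial cells (LSECs), the fenestrated cells that line the capillaries of the liver. The 10 genes were listed by name as members of the pathway, out of 18373 genes in the table: the receptors *Notch1*, *Notch2* and *Notch4*, the ligands *Dll1*, *Dll4*, *Jag1* and *Jag2*, the nuclear effector *Rbpj*, and the targets *Hes1* and *Hey1*. RNA-seq was performed on 4 libraries, 2 from cells given a control siRNA (NC) and 2 from cells given siRNA against the long noncoding RNA *Airn* (si*Airn*). In both groups the cells came from 8-week-old Balb/c mice by collagenase digestion, density gradient and selection with anti-CD146 beads, had 24 h in culture, and were collected 48 h after transfection, on day 3. The comparison addresses how siRNA against *Airn* changes the expression profile of LSECs. The study describes a pair of siRNAs, but the labels of both si*Airn* libraries carry the same siRNA name with a different suffix, so which of them each library was given was not settled. The labels call the libraries biological replicates. Nothing used here says whether they came from separate animals or cultures, so the p-values measure only the spread between these libraries.

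Notch receptors sit on the cell surface and are bound by Delta-like and Jagged ligands on the neighbouring cell. The bound receptor is cut by ADAM10 and then by γ-secretase, and the freed intracellular part joins RBPJ in the nucleus, where it replaces corepressors with coactivators of the Mastermind family and switches on targets such as the HES and HEY repressors. In the liver, *Jag1* and *Notch2* are known for their part in bile duct formation, and in endothelium DLL4 and NOTCH1 are known for restraining sprouting and for arterial identity.

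*Airn* itself was measured first. Its count was 7 and 3 in the NC libraries and 11 and 9 in the si*Airn*-labelled libraries. It was thus not lower in the latter, it did not pass the filter on low counts, and by itself it gives no check of the labels. Directions below therefore refer to libraries by their label. Total counts per library ranged from 17308382 to 18371959. Of the 13628 genes tested, 2294 (16.8%) had an adjusted p under 0.05 in the edgeR quasi-likelihood test, called changed below, with 1127 higher (8.27%) and 1167 lower (8.56%) in the si*Airn*-labelled libraries. The log2 fold changes followed transcript length (Spearman's rho = 0.37) and GC content (rho = -0.33) across genes (12845 genes, described only, because genes are not independent replicates). With the fold changes corrected for GC and transcript length, 1021 of 12845 genes (7.95%) were called, and the share of calls that were higher moved from 49.1% to 35.5%. Defining LSEC markers were present in every library, with a summed level of the 9 markers between 2229 and 3528 CPM (counts scaled to library size).

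The RefSeq promoter windows of build GRCm38.p6, from 250 bases before to 50 bases after each start site, were searched on both strands for TGGGAA, the core word bound by RBPJ, for GTGGGAA, a longer form that contains it, and for CACGCG and CACGTG, the E-box words bound by HES and HEY repressors. CACGTG reads the same on both strands. Of the 10 genes, 8 had an entry. Shown here are the windows of *Notch2* and *Jag1*, the members with a called change, and of *Rbpj*, the member with the RBPJ word. Capitals mark every match to any of the 4 words. The windows are chr3:98013288-98013587 on the plus strand for *Notch2*, chr2:137116471-137116770 on the minus strand for *Jag1* and chr5:53590096-53590395 on the plus strand for *Rbpj*.
Notch2: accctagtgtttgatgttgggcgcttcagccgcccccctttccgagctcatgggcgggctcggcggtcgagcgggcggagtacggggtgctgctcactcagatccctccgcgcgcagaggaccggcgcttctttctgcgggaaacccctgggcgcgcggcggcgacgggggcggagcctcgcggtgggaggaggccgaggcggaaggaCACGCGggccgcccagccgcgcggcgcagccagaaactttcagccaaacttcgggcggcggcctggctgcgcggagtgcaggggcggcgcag
Jag1: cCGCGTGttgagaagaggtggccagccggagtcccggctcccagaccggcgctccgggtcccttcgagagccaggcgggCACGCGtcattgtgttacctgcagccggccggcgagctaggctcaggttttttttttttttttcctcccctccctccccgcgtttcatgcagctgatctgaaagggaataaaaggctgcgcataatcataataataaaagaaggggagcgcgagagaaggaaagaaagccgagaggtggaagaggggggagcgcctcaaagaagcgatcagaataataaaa
Rbpj: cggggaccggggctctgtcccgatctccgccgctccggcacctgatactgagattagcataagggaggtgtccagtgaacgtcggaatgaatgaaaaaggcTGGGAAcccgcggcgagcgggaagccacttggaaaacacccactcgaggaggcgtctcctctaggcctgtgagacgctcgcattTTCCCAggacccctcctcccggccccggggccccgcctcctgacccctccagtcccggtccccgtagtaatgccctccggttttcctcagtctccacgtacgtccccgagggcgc

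CACGCG was found in the windows of 5 of the 8 members, namely *Notch2*, *Jag1*, *Dll1*, *Dll4* and *Jag2*, and in 10.5% of all 27025 genes with an entry. The matching windows of *Jag1* and *Dll1* had a GC content of 55.7% and 56.3%. Those of *Dll4*, *Notch2* and *Jag2* had 63.7%, 73.0% and 86.0%. Over all members the GC content of a window ran from 55.7% in *Jag1* to 86.0% in *Jag2*, against a median of 52.7% over all windows. In *Notch2* the match lies 42 bases before the start site, and in *Jag1* the matches lie 249 and 171 bases before it. TGGGAA was found in 1 of the 8 members, *Rbpj*, where the printed window holds matches 149 and 65 bases before the start site, and in 28.3% of all genes. *Rbpj* has another window, which overlaps the printed one and is not shown. Both lie within the annotated span of the gene, not at its start. GTGGGAA and CACGTG were found in 0 of the 8 members, and in 7.25% and 8.09% of all genes. A match is only an occurrence of these letters in the window.

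The order of the members by level was compared per length, as the deposited FPKM, a level scaled to transcript length and library size. In the NC libraries *Notch1* was highest with 22.1 ± 1.26 FPKM (mean ± SD, n = 2), followed by *Hes1* with 20.2 ± 0.389, *Notch4* with 18.6 ± 0.778 and *Dll4* with 14.8 ± 2.10. *Jag1* followed with 4.31 ± 0.170, *Rbpj* with 2.60 ± 0.0990 and *Notch2* with 2.31 ± 0.255. *Dll1* with 1.28 ± 0.523, *Hey1* with 1.25 ± 0.233 and *Jag2* with 0.280 ± 0.0424 closed the order. NOTCH1 and NOTCH4, the receptors typical of endothelium, thus had the highest receptor transcripts, and *Dll4*, the endothelial Delta-like ligand, the highest ligand transcript. Among neighbours in this order only *Dll1* and *Hey1* had overlapping values. In the si*Airn*-labelled libraries the order was the same except that *Notch2* stood above *Rbpj*, and *Hes1* and *Notch4* overlapped.

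**Figure D1:**
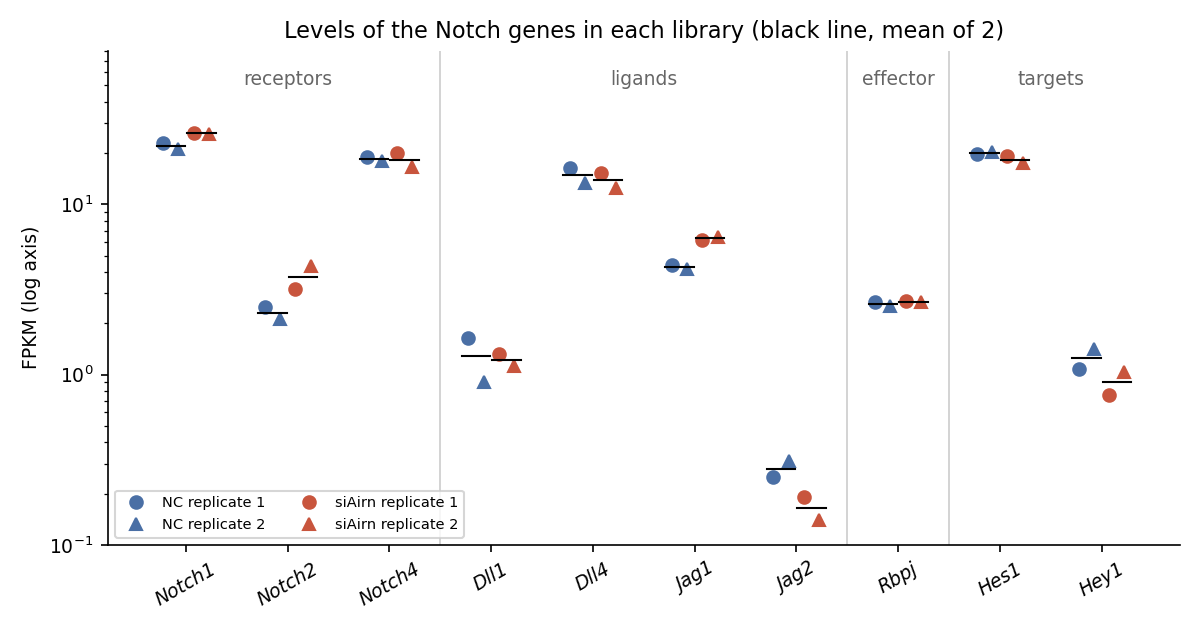
FPKM of each of the 10 genes in each library (log axis), with circles for replicate 1 and triangles for replicate 2, NC in blue, the si*Airn*-labelled libraries in red, and black lines at the mean of 2. *Notch1*, *Hes1*, *Notch4* and *Dll4* lie above 12 FPKM in all 4 libraries. *Notch1*, *Notch2* and *Jag1* lie higher in both red libraries than in either blue one.

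Of the 10 genes, 2 were called changed, *Notch2* and *Jag1*, both higher in the si*Airn*-labelled libraries. This is 20.0% of the members, against 16.8% of all genes tested, and the median log2 fold change was -0.07 over the members and 0.00 over all genes. The same 2 passed the threshold stated in the study's methods, a fold change over 1.4 with an unadjusted p under 0.05, which 9.96% of all genes passed. The CPM values of the groups did not overlap for 6 of the 10 genes, and for 62.7% of all genes tested. In these bulk libraries, a change in the number of cells of a type cannot be told apart from a change in RNA per cell.

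Among the receptors, *Notch2* (chromosome 3, 98013527 to 98150361, plus strand, GENCODE M21 on GRCm38), known for its role in bile duct formation, had estimated counts of 446 and 404 in the NC libraries and 590 and 792 in the si*Airn*-labelled libraries, or 2.49, 2.13, 3.20 and 4.34 FPKM. The groups did not overlap, and the second si*Airn*-labelled library was the highest. Its level was 1.60-fold higher in the si*Airn*-labelled libraries (95% interval 1.23 to 2.08, log2 fold change 0.68, SE 0.16, adjusted p = 0.0315). With the GC and length correction the log2 fold change was 0.51 and the call was lost (adjusted p = 0.0814), as it was in limma (adjusted p = 0.0632 and 0.0627 at the pseudocounts of 1 and 0.1). The call was also lost without the second si*Airn*-labelled library, where the log2 fold change was 0.43. Without NC replicate 1 it was 0.79, and without NC replicate 2 it was 0.57. With 1 NC library left, those fits called almost no gene of the whole table, so they cannot decide a call.

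*Notch1* (chromosome 2, 26457903 to 26516663, minus strand), the main receptor of these cells by level, had counts of 3731 and 3652 in the NC libraries and 4394 and 4286 in the si*Airn*-labelled libraries. Both of the latter lay above both NC libraries. The log2 fold change was 0.21 (95% interval 0.06 to 0.36), which did not pass the test (adjusted p = 0.0686), and with the GC and length correction it was 0.09 (adjusted p = 0.326). In edgeR with a replicate block *Notch1* was called (0.21, adjusted p = 0.00682), but not with the block and the correction together (0.09, adjusted p = 0.143). *Notch4* (chromosome 17, 34564268 to 34588503, plus strand), a receptor largely restricted to endothelium, had estimated counts of 2139 and 2141 in the NC libraries and 2307 and 1881 in the si*Airn*-labelled libraries. The groups overlapped, and the log2 fold change was -0.06 (95% interval -0.28 to 0.17, adjusted p = 0.718). Other annotated genes on the opposite strand cover 9.76% of the exonic bases of *Notch1*, and a gene on the same strand covers 5.02% of those of *Notch2*.

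Among the ligands, *Jag1* (chromosome 2, 137081456 to 137116644, minus strand), the Jagged ligand that pairs with NOTCH2 in bile duct formation, had counts of 413 and 416 in the NC libraries and 598 and 617 in the si*Airn*-labelled libraries, or 4.43, 4.19, 6.19 and 6.48 FPKM. The libraries within each group lay close together and the groups did not overlap. *Jag1* was 1.44-fold higher in the si*Airn*-labelled libraries (95% interval 1.25 to 1.66, log2 fold change 0.53, SE 0.09, adjusted p = 0.0126). It remained called with the GC and length correction (0.41, adjusted p = 0.0327). It lost the call without NC replicate 1 (0.56, adjusted p = 0.0815) and without NC replicate 2 (0.49, adjusted p = 0.122).

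*Dll4* (chromosome 2, 119325784 to 119335962, plus strand), the ligand of tip cells and arteries, had counts of 945 and 821 in the NC libraries and 914 and 738 in the si*Airn*-labelled libraries. The groups overlapped, and the log2 fold change was -0.12 (95% interval -0.42 to 0.18, adjusted p = 0.533). *Dll1* (chromosome 17, 15367354 to 15376872, minus strand), another Delta-like ligand, had counts of 95 and 57 against 79 and 67, with a log2 fold change of -0.09 (95% interval -0.79 to 0.61, adjusted p = 0.862). The NC libraries stood further apart than the groups did, and an antisense gene covers 20.5% of its exonic bases. *Jag2* (chromosome 12, 112907819 to 112929776, minus strand), the second Jagged ligand, had counts of 20 and 26 in the NC libraries and 16 and 10 in the si*Airn*-labelled libraries. The groups did not overlap, but at this depth the interval of its log2 fold change, -0.84, reached from -1.81 to 0.14 (adjusted p = 0.200).

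The nuclear effector *Rbpj* (chromosome 5, 53466152 to 53657362, plus strand), the DNA-binding protein on which all receptors act, had estimated counts of 248 and 251 in the NC libraries and 262 and 243 in the si*Airn*-labelled libraries. The groups overlapped, with a log2 fold change of -0.01 (95% interval -0.26 to 0.25, adjusted p = 0.978). Pseudogenes and other genes share 24.3% of its 50-base stretches, so its count is uncertain. *Hes1* (chromosome 16, 30064384 to 30067796, plus strand), a repressor switched on by Notch, had counts of 459 and 500 in the NC libraries and 453 and 407 in the si*Airn*-labelled libraries, with no overlap and a log2 fold change of -0.18 (95% interval -0.39 to 0.04, adjusted p = 0.214). *Hey1* (chromosome 3, 8663359 to 8667256, minus strand), a related repressor of endothelium, had counts of 39 and 54 against 28 and 38, with a log2 fold change of -0.51 (95% interval -1.24 to 0.22, adjusted p = 0.291). Neither target passed the test.

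**Figure D2:**
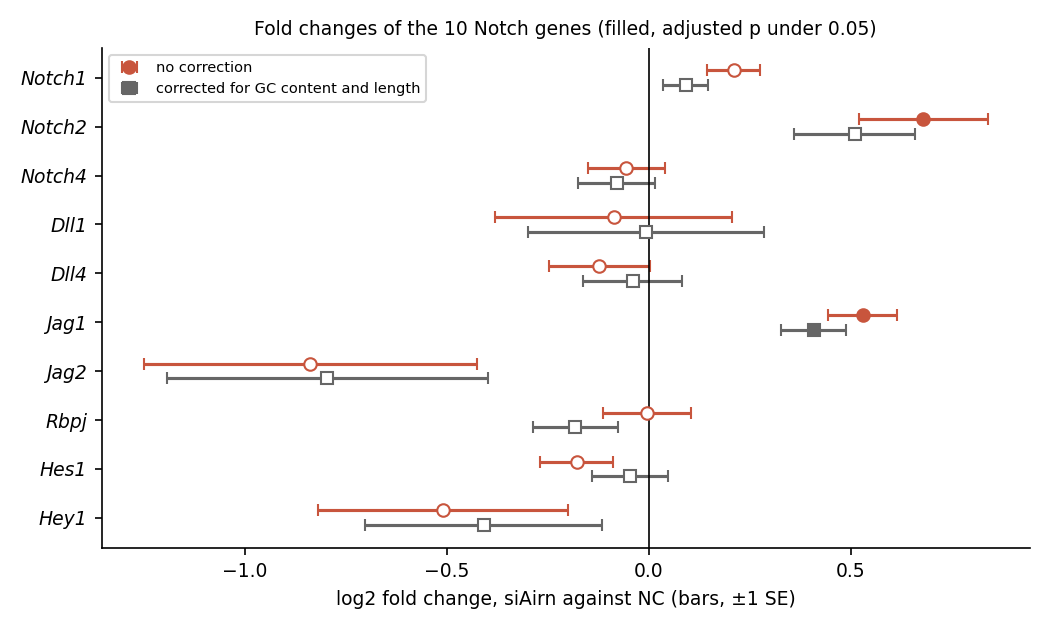
Log2 fold change of the si*Airn*-labelled libraries against NC for the 10 genes, with bars of ±1 SE, without (red circles) and with (grey squares) the GC and length correction; filled symbols passed an adjusted p of 0.05. *Notch2* and *Jag1* are filled without the correction, and only *Jag1* with it.

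The make-up of the receptors and ligands was described by each gene's share of the summed FPKM of its class, with no test. These shares carry no GC and length correction. *Notch2* made 5.57% and 5.14% of the 4 receptors in the NC libraries, and 6.42% and 9.20% in the si*Airn*-labelled libraries. *Notch4* made 42.7% and 43.4%, and then 40.3% and 35.1%. *Notch1* made 51.4% and 51.2%, and then 53.0% and 55.3%. Of the 4 ligands, *Jag1* made 19.6% and 22.4% in the NC libraries and 26.8% and 32.0% in the si*Airn*-labelled libraries, while *Dll4* made 72.0% and 71.1%, and then 66.6% and 61.8%. The ratio of *Jag1* to *Dll4* was 0.272 and 0.314 in the NC libraries and 0.403 and 0.517 in the others. *Dll4* remained the most abundant ligand and *Notch1* the most abundant receptor in all 4 libraries.

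**Figure D3:**
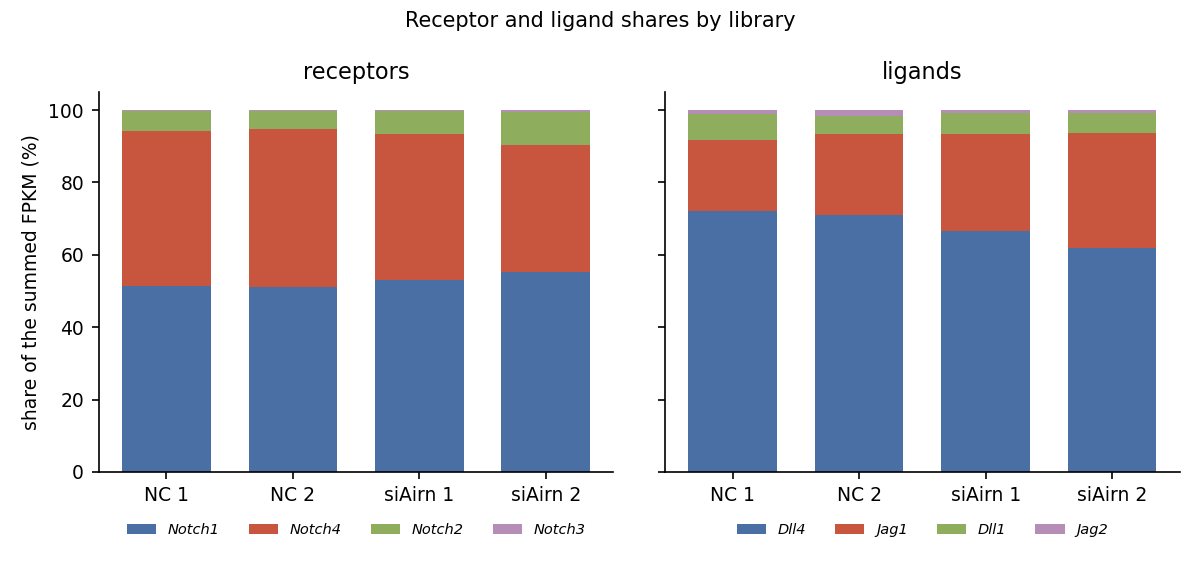
Share of the summed FPKM of the 4 receptors (left) and the 4 ligands (right) taken by each gene in each library. The *Jag1* share is between 19.6% and 22.4% in NC and between 26.8% and 32.0% in the si*Airn*-labelled libraries.

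The other genes of the pathway were listed by role, 62 in all. *Hes5* was not analysed here, 8 did not pass the filter on low counts, and 53 were tested. Of these, 15 (28.3%) were called, 6 higher and 9 lower, where 16.8% of all genes tested were called, 8.27% higher and 8.56% lower. The median log2 fold change of the 53 was -0.03. With the GC and length correction 9 genes were called, all of them among the 15. This was 16.98% of the 53, against 7.95% of all genes. The edgeR fits without NC replicate 1 or without NC replicate 2 called almost no gene of the whole table. They cannot decide the calls of these genes. *Notch3*, the receptor of mural cells, had counts of 19 and 12 in the NC libraries and 21 and 26 in the si*Airn*-labelled libraries, which did not pass the test (log2 fold change 0.57, adjusted p = 0.373).

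The role lists are small, and their counts stand beside the 8.56% of all genes called lower and the 8.27% called higher. Of 5 glycosylation genes (median log2 fold change -0.55) 3 were lower in the si*Airn*-labelled group and remained so with the correction: *Pofut1*, which adds O-fucose to the receptor, with a log2 fold change of -0.62 (SE 0.08), and the Fringe enzymes *Mfng* with -0.57 (SE 0.08) and *Lfng* with -0.55 (SE 0.09), which extend that fucose. With the correction *Pofut1* was at -0.69 (adjusted p = 0.00843), *Mfng* at -0.37 (adjusted p = 0.0444) and *Lfng* at -0.38 (adjusted p = 0.0487). *Lfng* counts were 503 and 504 in the NC libraries and 350 and 348 in the others, so each group was tight and the groups did not overlap. Of 10 proteolysis genes (median -0.24) 3 were lower: *Adam10*, the protease of the ligand-induced cut, with -0.50, and *Aph1a* and *Psen2*, subunits of γ-secretase, with -0.40 and -0.39. The call of *Psen2* was lost with the correction (-0.23, adjusted p = 0.0702). *Aph1a* shares 47.9% of its 50-base stretches with other genes, so its count is uncertain. *Adam10* had counts of 2302 and 2445 against 1793 and 1612. Of 5 genes listed as ligand ubiquitin ligases (median -0.37) *Neurl3* was lower, with -0.37. *Egfl7*, a secreted endothelial protein that binds Notch receptors, was also lower, with -0.60. Its call was lost with the correction (-0.41, adjusted p = 0.0661), and it was called in 9 of the 10 alternatives that kept every library.

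Of 7 coactivators (median log2 fold change 0.00), 2 were higher in the si*Airn*-labelled group, *Ep300*, an acetyltransferase, with 0.51 and *Maml1*, a Mastermind protein, with 0.33. Of 8 corepressors (median 0.16), 2 were higher, *Kdm5a*, a histone demethylase, with 0.35 and *Spen*, a scaffold of RBPJ repression, with 0.30. Of 9 turnover genes tested (median 0.13), 1 was higher, *Itch*, a ubiquitin ligase of the receptor, with 0.34. These shares, 28.6%, 25.0% and 11.1% called, lie on both sides of the 16.8% of all genes called. With the GC and length correction only *Ep300* of these 5 remained called (0.31, adjusted p = 0.0363). *Maml1* kept a log2 fold change of 0.31 (adjusted p = 0.0666), while *Spen* and *Itch* were at 0.15 and 0.16 (adjusted p = 0.151 and 0.220) and *Kdm5a* at 0.03 (adjusted p = 0.799). *Maml1* and *Spen* also missed the threshold in limma at both pseudocounts, and *Maml1* did so with no filter beyond 1 count. The log2 fold change of *Maml1* was 0.34 and 0.36 in limma at pseudocounts of 1 and 0.1, and 0.32 with that filter. *Maml1* was called in 6 and *Spen* in 7 of the 10 alternatives that kept every library, over which *Spen* ran from 0.15 to 0.33. Without si*Airn* replicate 1 the calls of *Maml1* (0.25, adjusted p = 0.125), *Spen* (0.28, adjusted p = 0.0623) and *Itch* (0.32, adjusted p = 0.0536) were lost, and without si*Airn* replicate 2 that of *Spen* (0.32, adjusted p = 0.0507).

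Of the further targets, 7 were tested (median log2 fold change 0.19, 4 positive and 3 negative). *Nrarp*, an ankyrin-repeat feedback inhibitor induced by Notch, was 1.75-fold lower in the si*Airn*-labelled libraries (log2 fold change -0.81, SE 0.12, adjusted p = 0.0103), with counts of 1745 and 1830 in the NC libraries and 1189 and 889 in the others. An opposite-strand gene covers 79.4% of the exonic bases of *Nrarp*, and whether counting used strand is not given in the sources used here, so this count is uncertain. *Efnb2*, the arterial ephrin-B2, was higher, with a log2 fold change of 0.46 (SE 0.09, adjusted p = 0.0227) and counts of 760 and 699 against 980 and 1060. *Gja4*, the arterial connexin 37, with -0.33 (adjusted p = 0.235), and *Hey2* with -0.02 (adjusted p = 0.985) did not pass. *Heyl* did not pass the filter, with counts of 8 and 8 against 5 and 14. The targets thus included a call in each direction, and *Hes1* and *Hey1* passed in neither.

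**Figure D4:**
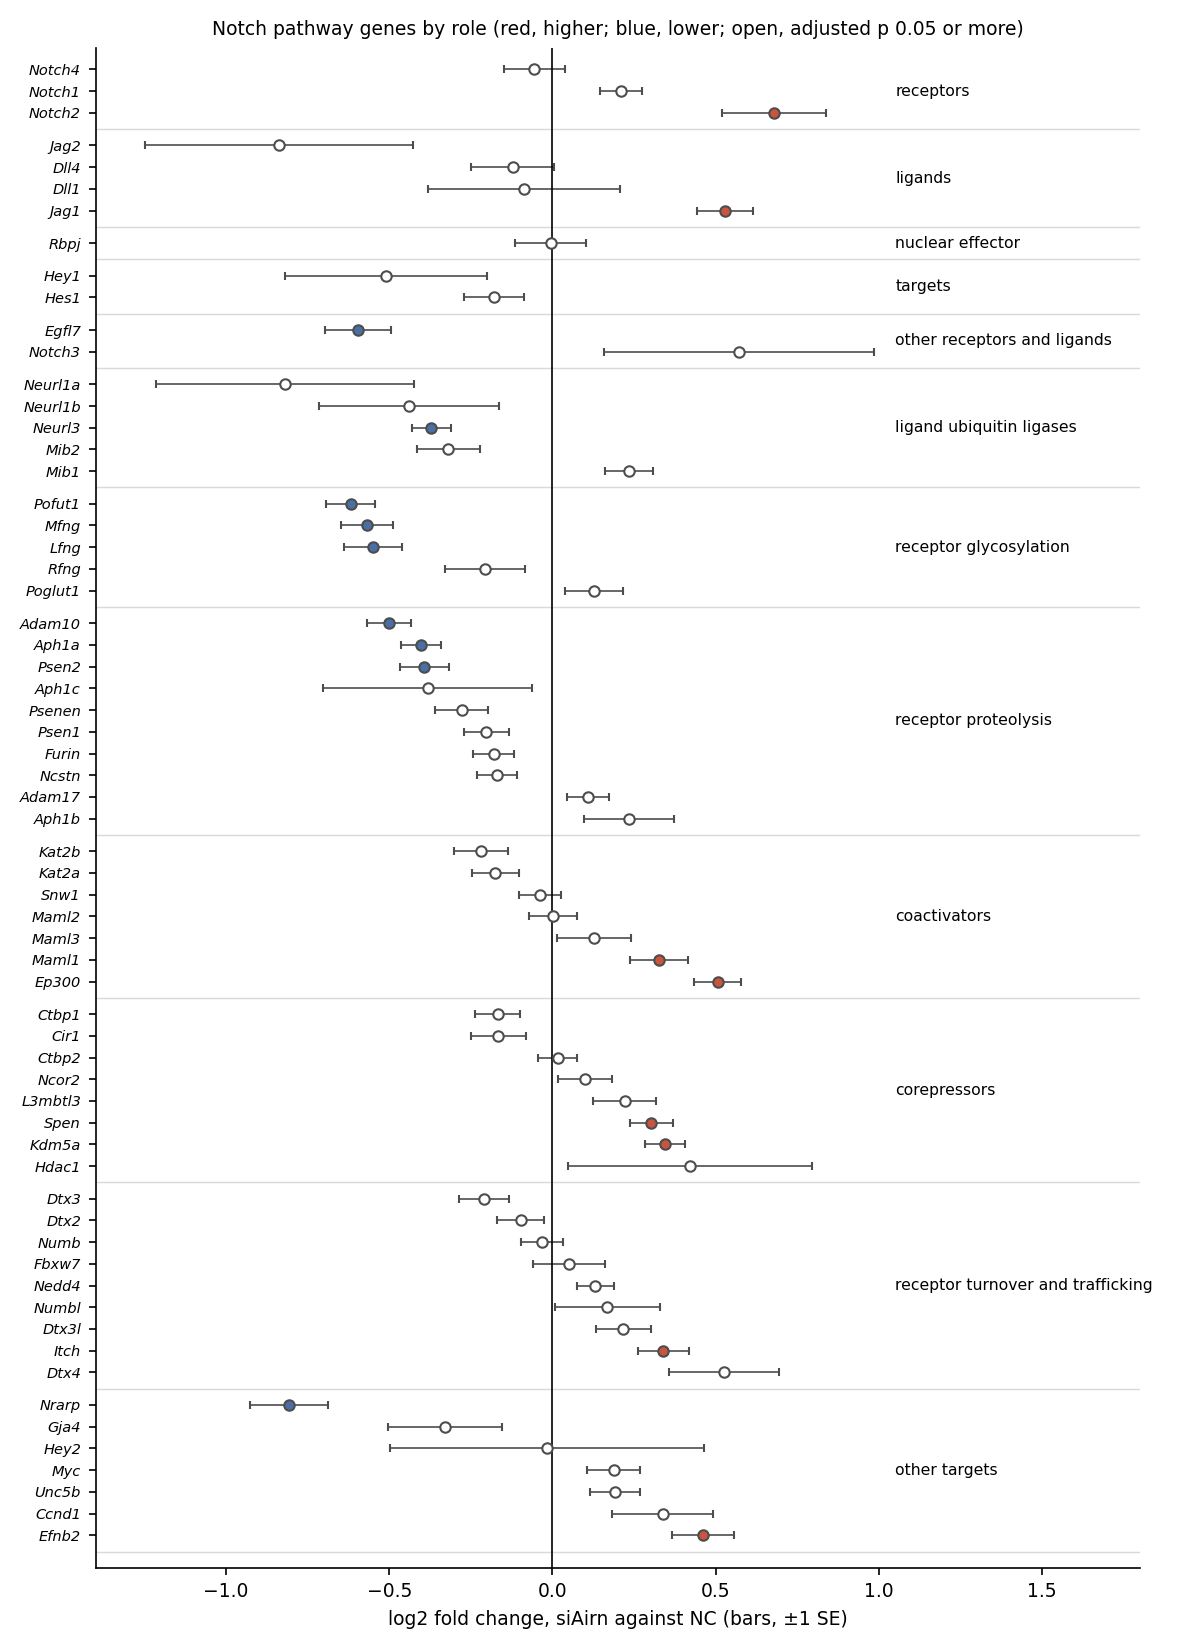
Log2 fold change of the si*Airn*-labelled libraries against NC for each tested pathway gene, grouped by role, with bars of ±1 SE; red marks genes called higher, blue genes called lower, and open circles those with an adjusted p of 0.05 or more. The 9 blue circles are *Egfl7*, *Neurl3*, *Nrarp* and 3 each of the glycosylation and proteolysis genes, and the red ones are *Notch2*, *Jag1*, *Efnb2* and genes of the nuclear and turnover groups.

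Markers of the cell types that the preparation could hold were compared in the same fit, where 8.56% of all genes were called lower and 8.27% higher. Of 9 LSEC markers, 8 were lower in the si*Airn*-labelled libraries, among them *Lyve1* (log2 fold change -0.84), *Flt4* (-0.58) and *Stab1* (-0.55), and their sum was 3497 and 3528 CPM in the NC libraries and 2464 and 2229 CPM in the others. Of 8 pan-endothelial markers, 5 were lower, with sums of 8955 and 8596 CPM against 6529 and 5761 CPM. Of 11 macrophage markers tested, 7 were lower, with sums of 243 and 310 CPM against 186 and 156 CPM. Of 13 stellate, mural and fibroblast markers, 4 were higher, and all 13 had a positive log2 fold change. Their sums were 1767 and 2140 CPM against 2064 and 2671 CPM, so the sums of the groups overlapped. Of 6 hepatocyte markers 1 was higher and all 6 had a positive log2 fold change, with sums of 598 and 760 CPM against 835 and 1087 CPM. With the GC and length correction 8 of these 8 LSEC calls, 4 of 5 pan-endothelial, 2 of 7 macrophage, 3 of 4 stellate and 1 of 1 hepatocyte calls remained, in a fit that called 7.95% of all genes. Of 7 cholangiocyte markers tested, 0 were called by edgeR, 1 had an unadjusted p under 0.05 and 1 was called higher with the GC and length correction, with sums between 32.7 and 36.4 CPM. Of 3 markers of arterial and continuous endothelium tested, 0 were called by edgeR and 2 had an unadjusted p under 0.05, and the sums of the list's 4 genes were between 15.0 and 31.6 CPM. Of 3 lymphocyte markers tested, 0 were called by edgeR and 1 had an unadjusted p under 0.05, with sums between 6.65 and 7.80 CPM. In the same edgeR fit 4631 of all 13628 genes tested had an unadjusted p under 0.05. The second si*Airn*-labelled library, the highest for *Notch2*, was also the lowest in LSEC and the highest in stellate and hepatocyte markers. The part of these shifts in the *Notch2*, *Jag1* and pathway results was not tested. No list had a marker at 0 in all 4 libraries.

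**Figure D5:**
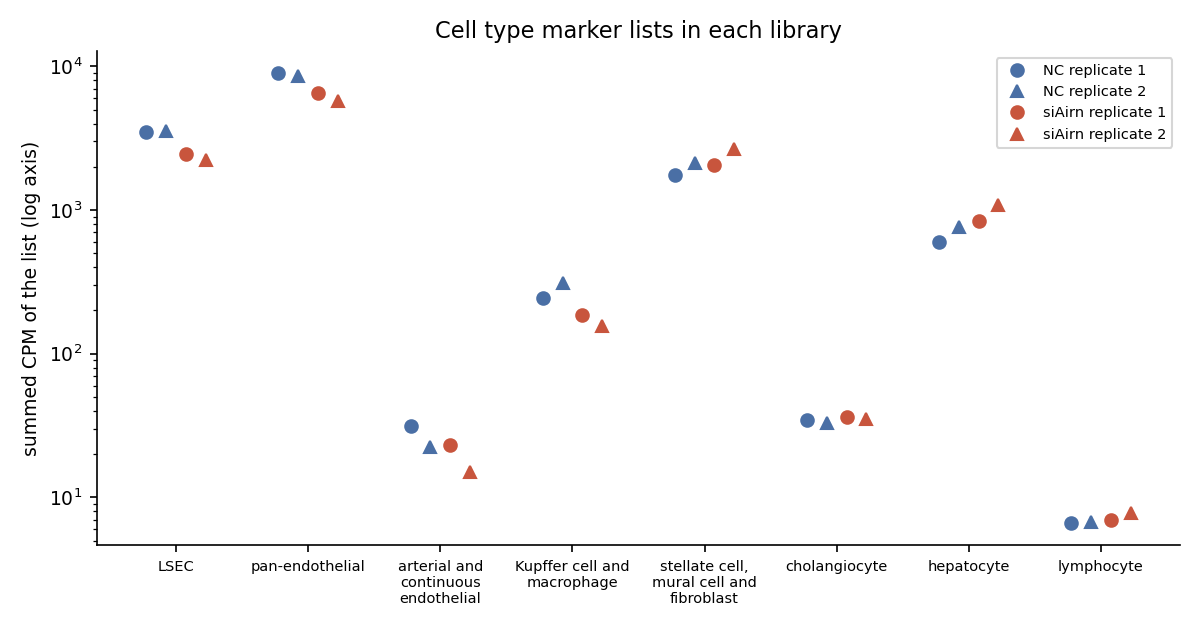
Summed CPM of each cell type marker list in each library (log axis), with circles for replicate 1 and triangles for replicate 2, NC in blue and the si*Airn*-labelled libraries in red. LSEC and pan-endothelial sums are lower in both red libraries, and hepatocyte sums are higher.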

How the data were processed

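RNA-seq of 4 libraries was analysed from 1 table of the whole series. The estimated counts deposited by the authors were not normalized, and 76.5% to 76.8% of them, over all genes and with zeros included, were exactly whole as written. The second value per gene and library has no unit in the header and was read as FPKM computed by the authors. The submitters' processing notes name BWA, Bowtie2, RSEM and hg19, a human build. The annotation, filters and use of strand are not given in the sources used here.

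Counts were rounded and tested in R 4.3.3 with edgeR 4.0.16 (TMM, filterByExpr, glmQLFit, glmQLFTest, no covariate), with Benjamini-Hochberg adjustment over all genes tested. Alternatives were DESeq2 1.42.0, limma 3.58.1 on log2(FPKM + 1) or log2(FPKM + 0.1) for genes with a mean of at least 1 FPKM, upper-quartile scaling, other filters, a likelihood-ratio test, a replicate block, a spline correction for GC content and length from GENCODE M21, and leaving out each library. Methods were tested on simulated data. All members were named, as were other pathway genes with an adjusted p under 0.05 and *Notch3*, *Heyl*, *Hey2*, *Nrarp*, *Efnb2* and *Gja4*. Members and lists were chosen with earlier results of these data known.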

Additional observations from a re-analysis of the deposited data

How the results depend on the processing

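*Jag2*, *Hey1*, *Dll1* and *Notch3* had low counts and large SEs (0.29 to 0.41), and with 2 libraries per group the calls depend on each NC library. Genes called were 4841 with the replicate block, 4033 with the block and the GC and length correction, and 1021 with that correction alone. Leaving out 1 library gave from 0 to 2332 calls. The count of 0 came without NC replicate 2, in edgeR, where 3075 genes had an unadjusted p under 0.05; with all libraries DESeq2 called 1742 and limma 1743. In such fits the lone library is assumed to vary like the other group. Genes past the study's threshold were 783 with limma on log2(FPKM + 1) and 901 with the correction. Members called were 1 with limma at either pseudocount and 1 with the correction, and 0 to 2 without 1 library. Other pathway genes called were 30 with the block, 9 with the correction, 24 with both and 0 to 15 without 1 library. Replicate numbers were not taken to pair the libraries, since their deviations correlated at 0.23 in only 2 pairs; under the replicate block *Notch1* was called (0.21, adjusted p = 0.00682), but not with the block and the correction together (0.09, adjusted p = 0.143). *Notch2* was 0.52 and 0.67 in limma with pseudocounts of 1 and 0.1 and 0.51 with the correction, all with an adjusted p above 0.05, was called with the correction and block (0.50, adjusted p = 0.000280), and from 0.43 to 0.89 without 1 library. *Jag1* was called in all 10 alternatives that kept every library, and ran from 0.49 to 0.57 without 1 library. Values that changed sign were uncalled throughout: *Rbpj*, 0.034 and 0.045 in limma and from -0.045 to 0.033 without 1 library; *Dll1*, 0.010 with the correction and block and from -0.44 to 0.37 without 1 library; *Dll4*, from -0.27 to 0.023; *Notch4*, from -0.19 to 0.07; and *Hey2*, from -0.30 to 0.35. DESeq2 gave no adjusted p for *Dll1*, *Jag2* and *Hey1*. Levels as CPM per kilobase moved by more than 1 SD for *Notch1* (25.9) and *Rbpj* (2.62) in the si*Airn*-labelled libraries.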
